A study of Mus musculus with 28 samples.

Results

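The Bcl2 family of apoptosis regulators was followed in injured mouse cortex through 10 listed genes, taken by symbol, with the transcript cluster of highest mean signal over 28 arrays standing for each gene. A transcript cluster is the set of probes that the array assigns to one gene or transcript locus. Of the 10 genes, 9 had a transcript cluster named for that gene alone, and each of the 9 had 1, out of 65956 transcript clusters tested in the whole series. Bax was not analysed here. The 9 measured genes comprised 3 anti-apoptotic members (Mcl1, Bcl2l1 and Bcl2), 1 pore-forming member (Bak1) and 5 BH3-only members (Bcl2l11, Bbc3, Bid, Bad and Pmaip1).

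Family members act at the outer membrane of mitochondria. Bax and Bak1 can assemble into pores that release cytochrome c, which then drives the Apaf1 apoptosome to activate caspases. Mcl1, Bcl2l1 (Bcl-xL) and Bcl2 hold these pore formers and their activators in check, and BH3-only proteins, switched on by damage or loss of survival signals, relieve that restraint or activate the pore formers directly. Neurons are known to depend on Bcl-xL and Mcl1 for survival, and the balance of the classes has long been studied in brain trauma.

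Gene expression was measured in cortical tissue of mice aged 12 to 15 weeks, 7 animals in each of 4 groups: wild type with sham procedure (WT sham), wild type with controlled cortical impact (WT CCI), Rbm5 knockout with sham procedure (KO sham) and Rbm5 knockout with impact (KO CCI). Rbm5 is an RNA-binding splicing factor with known targets among apoptosis genes. Sham mice were anaesthetised and left to recover, without opening of the skull, whereas injured mice had a craniotomy and then the impact, so every injury change includes both. All mice were perfused with cold saline and sampled 48 h later, and total RNA was hybridised to 1 array per animal. The strain, the part of Rbm5 that was deleted and the cells in which it was deleted are not given in the sources used here. Each group held 3 or 4 males, and the numbers in the sample titles form runs of 1 to 24 and 25 to 42, with 4 and 3 arrays of each group.

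Values are log2 signal, and 1 log2 unit is a doubling. As a check of the genotype labels, Rbm5 lay between 9.66 and 9.84 on the knockout arrays and between 10.59 and 10.82 on the wild type arrays. On 7 arrays (WT sham 25, WT CCI 13, 14, 16 and 35, and KO CCI 22 and 40) the mean of the striatum or the choroid plexus marker genes lay 1 log2 unit or more above its median over all arrays, and these are called the region-marked arrays here. Member changes are also given without them, an alternative chosen after seeing the data. The tissue is a mixture of cells, and a lower signal can come from fewer cells of a type or from less RNA per cell, which cannot be told apart here.

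The rows differed in where they stood against the array's negative controls, whose row means had a median of 6.57 and a 95th percentile of 10.24. Mcl1 had a mean of 10.48 over the 28 arrays and exceeded 95.7% of the negative controls. Bcl2l1 (8.80) exceeded 86.0% and Bcl2 (8.36) exceeded 81.2%. All 6 measured pro-apoptotic genes had means under the negative-control median: Bid at 6.30, Bak1 at 6.11, Bad at 5.88, Bbc3 at 5.84, Bcl2l11 at 5.75 and Pmaip1 at 5.67. That median also lay above the median of every array (5.79 to 5.90). The 6 genes exceeded from 47.4% (Pmaip1) to 57.1% (Bid) of all transcript clusters tested, and so stood near the middle of the array. The files give no detection call per row, and the 9 levels are not set against each other because probes differ in brightness. Only the mean of Mcl1 lay above the 95th percentile of the negative controls. The pro-apoptotic rows, and also those of Bcl2l1 and Bcl2, were thus not shown to be above background, although changes between groups were measured on them.

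Injury in wild type cortex moved the family in both of its classes. Mcl1, Bcl2l1, Bak1 and Bcl2l11 rose and Bcl2 fell, so that 5 of the 9 measured genes changed. The other 4, all BH3-only genes, did not pass the test. The calls are those of limma at a Benjamini-Hochberg adjusted p under 0.05 over all transcript clusters. Of all those tested, 8.86% were called higher and 7.96% were called lower by injury in wild type, against 4 and 1 of the 9 family genes. The median log2 change of the 9 genes was 0.10, and that of all transcript clusters was -0.023.

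**Figure D1:**
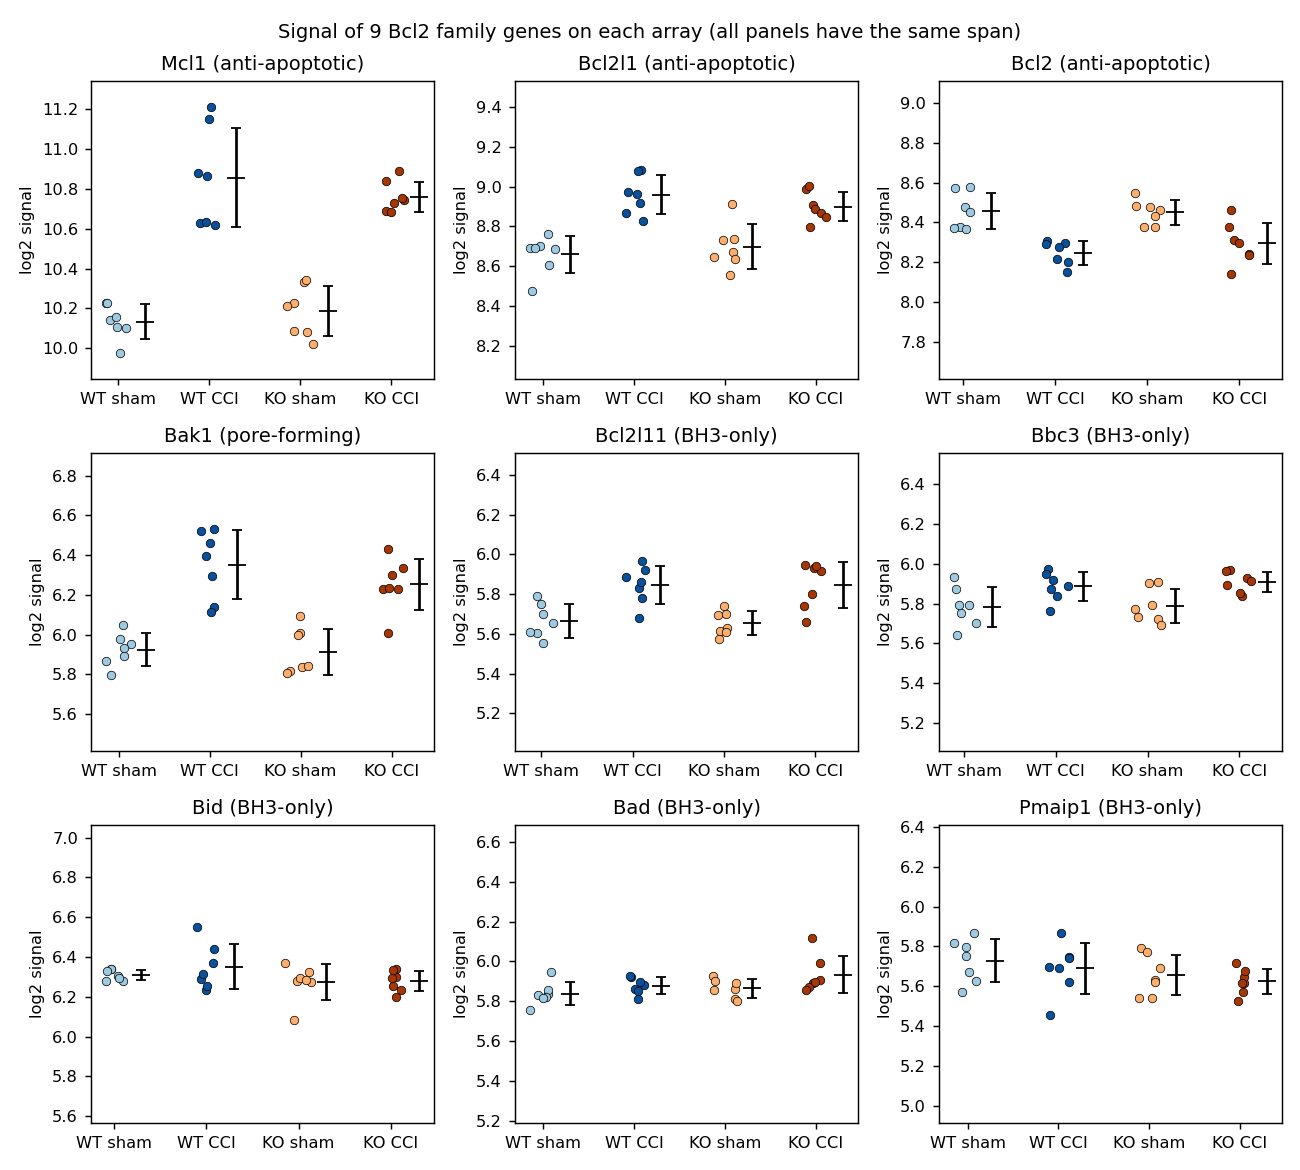
Log2 signal of the 9 measured genes on each of the 28 arrays, by group; points are arrays, and the bar beside each set of points is the mean with 1 SD (n = 7). Every panel covers the same span of log2 units. The injured arrays of Mcl1 lie above every sham array of the same genotype, and those of Bad, Bid and Pmaip1 overlap the sham arrays in both genotypes.

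Mcl1, a short-lived protein that binds Bak1 and BH3-only proteins and whose transcript responds quickly to stress and cytokines, had the largest change of the family. In WT sham its log2 signal ran from 9.98 (median 10.14) to 10.23. In WT CCI it ran from 10.62 (median 10.86) to 11.21. All 7 injured arrays lay above all 7 sham arrays, as they did for 4.44% of all transcript clusters. Mcl1 rose by 0.72 on the log2 scale (SE 0.081, 95% interval 0.56 to 0.89, 1.65-fold, limma adjusted p = 1.17e-07), and only 1.5% of all transcript clusters had a larger positive change.

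Injured wild type mice were not uniform in Mcl1. WT CCI 13, 14 and 16 stood at 10.63, 10.62 and 10.64, WT CCI 35 and 15 at 10.86 and 10.88, and WT CCI 34 and 36 at 11.15 and 11.21. The 4 region-marked arrays of this group were its 4 lowest in Mcl1, and the part of that tissue in the spread was not tested. Without the 7 region-marked arrays of the series, Mcl1 rose by 0.96 in wild type (adjusted p = 6.4e-08). Within the runs of title numbers it rose by 0.58 (1 to 24, adjusted p = 0.000373) and by 0.91 (25 to 42, adjusted p = 0.000539).

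Bcl2l1, whose main product Bcl-xL is the principal anti-apoptotic family protein of mature neurons, was also higher after injury. It ran from 8.48 (median 8.69) to 8.76 in WT sham and from 8.83 (median 8.96) to 9.09 in WT CCI. No injured array reached down to the sham range. Bcl2l1 rose by 0.30 (SE 0.053, 95% interval 0.19 to 0.41, 1.23-fold, adjusted p = 0.000125). A transcript cluster sums over isoforms, so the long form and the pro-apoptotic short form of Bcl2l1 were not separated.

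Bcl2, the founding member of the family, moved the other way. Its log2 signal ran from 8.37 (median 8.45) to 8.58 in WT sham and from 8.15 (median 8.28) to 8.31 in WT CCI. All injured arrays lay below all sham arrays, as they did for 2.82% of all transcript clusters. Bcl2 fell by 0.21 on the log2 scale (SE 0.049, 95% interval -0.31 to -0.11, 1.16-fold, adjusted p = 0.00264). The 3 anti-apoptotic genes thus did not move as a block.

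Bak1, the pore-forming member, had the second largest rise. It ran from 5.80 (median 5.93) to 6.05 in WT sham and from 6.11 (median 6.39) to 6.53 in WT CCI, with no overlap. The rise was 0.43 (SE 0.071, 95% interval 0.28 to 0.57, 1.34-fold, adjusted p = 5.11e-05), on a row under the negative-control median. As for Mcl1, the 4 region-marked arrays of WT CCI were its 4 lowest (6.11 to 6.39, against 6.46 to 6.53 on the other 3), and without all 7 such arrays Bak1 rose by 0.58.

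Among BH3-only genes, Bcl2l11 (Bim), an activator that binds every anti-apoptotic member, was the only one called. It ran from 5.55 (median 5.65) to 5.79 in WT sham and from 5.68 (median 5.86) to 5.97 in WT CCI. The ranges overlapped. Bcl2l11 rose by 0.18 (SE 0.053, 1.13-fold, adjusted p = 0.0177), and 11.7% of all transcript clusters had a larger positive change.

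Bbc3 (Puma), a target of p53 that binds all anti-apoptotic members, ran from 5.64 (median 5.79) to 5.94 in WT sham and from 5.76 (median 5.89) to 5.97 in WT CCI. Its log2 change of 0.10 (95% interval 0.004 to 0.20, adjusted p = 0.163) did not pass. Pmaip1 (Noxa), a BH3-only protein that binds chiefly Mcl1, ran from 5.57 (median 5.75) to 5.87 in WT sham and from 5.46 (median 5.70) to 5.87 in WT CCI, a log2 change of -0.040 (95% interval -0.16 to 0.080, adjusted p = 0.736). The sham range of Pmaip1 lay wholly inside the injured range.

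Bid, which links death receptors to mitochondria once caspase 8 has cut it, ran from 6.28 (median 6.30) to 6.34 in WT sham and from 6.24 (median 6.32) to 6.55 in WT CCI, a log2 change of 0.041 (95% interval -0.057 to 0.14, adjusted p = 0.656). Bad, which is held inactive by phosphorylation when growth factors are present, ran from 5.76 (median 5.83) to 5.95 in WT sham and from 5.81 (median 5.88) to 5.93 in WT CCI, a log2 change of 0.041 (95% interval -0.044 to 0.13, adjusted p = 0.594). The groups overlapped for both genes. The activity of Bid and Bad is set largely by cleavage and phosphorylation, which an array does not read.

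Injury in Rbm5 knockout cortex called the same 5 genes in the same directions. Mcl1, Bcl2l1, Bak1 and Bcl2l11 rose, and Bcl2 fell. Of all transcript clusters tested, 8.43% were called higher and 8.27% were called lower by injury in knockout. Centring each array on its median moved this split from 5560 higher and 5457 lower to 4021 higher and 7576 lower, and under it the calls of Bcl2l1 and Bcl2l11 in knockout were lost (adjusted p = 0.0946 and 0.0592). The median log2 change of the 9 genes was 0.12, against 0.012 over all transcript clusters.

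Mcl1 ran from 10.02 (median 10.21) to 10.34 in KO sham and from 10.68 (median 10.75) to 10.89 in KO CCI. It was the only family gene whose injured knockout arrays all lay above the sham knockout arrays, a pattern that 3.51% of all transcript clusters had. None of the 9 had all injured knockout arrays below the sham arrays, which held for 2.87% of all. Mcl1 rose by 0.58 (SE 0.081, 95% interval 0.41 to 0.74, 1.49-fold, adjusted p = 7.56e-06), and its SD within KO CCI was 0.076, against 0.25 within WT CCI. Unlike in WT CCI, the region-marked arrays KO CCI 22 and 40 were not the lowest. They stood at 10.84 and 10.73, inside the range of the rest of the group.

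Bak1 ran from 5.81 (median 5.84) to 6.09 in KO sham and from 6.01 (median 6.24) to 6.43 in KO CCI. The lowest injured array was KO CCI 40, a region-marked array, and it alone fell inside the sham range. The other region-marked array, KO CCI 22, stood at 6.23, near the median. Bak1 rose by 0.34 (SE 0.071, 1.26-fold, adjusted p = 0.00104).

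Bcl2l1 ran from 8.56 (median 8.67) to 8.91 in KO sham and from 8.80 (median 8.89) to 9.0 in KO CCI, and rose by 0.19 (SE 0.053, 1.14-fold, adjusted p = 0.0112). Bcl2l11 ran from 5.57 (median 5.63) to 5.74 in KO sham and from 5.66 (median 5.92) to 5.94 in KO CCI, and rose by 0.19 (SE 0.054, 1.14-fold, adjusted p = 0.0115). Both pairs of ranges overlapped.

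Bcl2 ran from 8.37 (median 8.46) to 8.55 in KO sham and from 8.14 (median 8.30) to 8.46 in KO CCI, again with overlap. It fell by 0.16 on the log2 scale (SE 0.049, 1.12-fold, adjusted p = 0.024). Of the 10 injury calls this was the 1 that a single array could end. It was lost without KO sham 31 (adjusted p = 0.0531), without KO CCI 21 (0.0712) and without KO CCI 42 (0.0521). It was also lost in a fit of the knockout arrays alone (0.0771), within each run of title numbers (0.341 and 0.248) and under quantile normalization (0.128). The other 9 calls held whichever single array was left out.

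The remaining BH3-only genes did not pass in knockout either. Bbc3 ran from 5.69 to 5.91 in KO sham and from 5.84 to 5.97 in KO CCI (log2 change 0.12, 95% interval 0.019 to 0.22, adjusted p = 0.101). Bad ran from 5.80 to 5.93 in KO sham and from 5.86 to 6.12 in KO CCI (log2 change 0.069, adjusted p = 0.31). Pmaip1 ran from 5.54 to 5.79 and from 5.53 to 5.72 (log2 change -0.031, adjusted p = 0.802), and Bid from 6.08 to 6.37 and from 6.2 to 6.34 (log2 change 0.006, adjusted p = 0.963). The groups overlapped for each of these 4 genes.

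**Figure D2:**
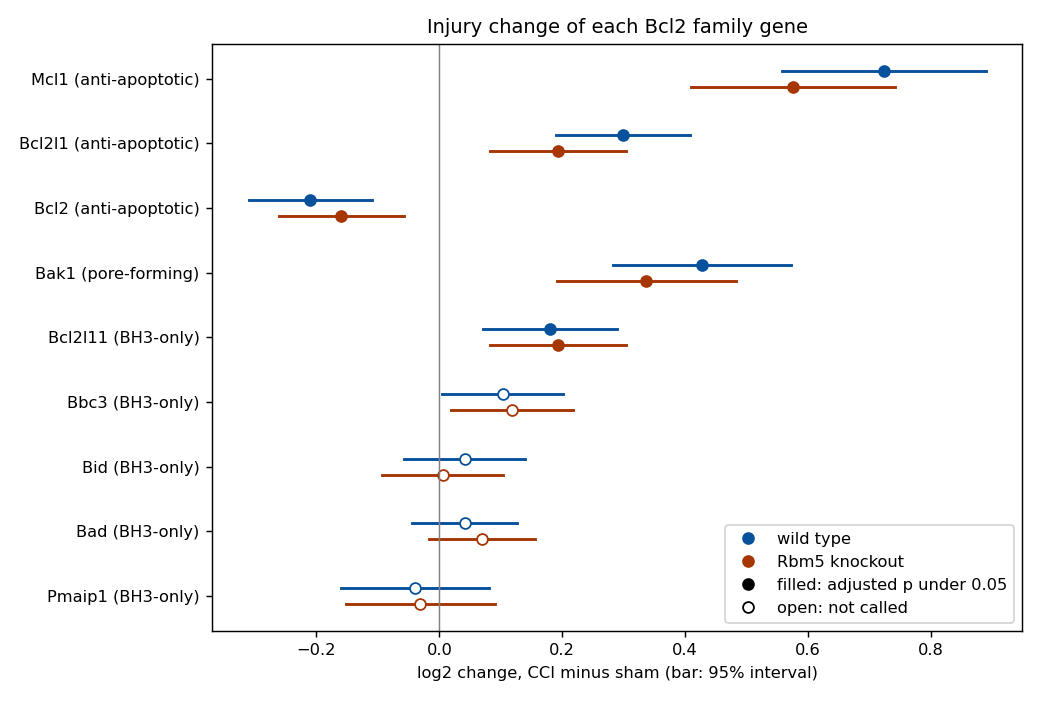
Log2 change with injury (CCI minus sham) of each measured gene in wild type and in Rbm5 knockout; bars are 95% intervals, filled points have an adjusted p under 0.05. Mcl1 has the largest rise (0.72 and 0.58) and Bcl2 is the only called fall (-0.21 and -0.16), while the intervals of Bid, Bad and Pmaip1 include 0 in both genotypes.

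The firmness of the calls differed between genes. In title numbers 1 to 24 fitted alone, with 4 arrays per group, Mcl1, Bcl2l1 and Bak1 were called in wild type and Mcl1 and Bak1 in knockout. In title numbers 25 to 42, with 3 arrays per group, Mcl1 alone was called in either genotype. Directions of the 5 genes were the same in both runs, and the log2 change of Bak1 in wild type was 0.43 in each. Without the 7 region-marked arrays, Bcl2 and Bcl2l11 lost their call in wild type (adjusted p = 0.0608 and 0.142) with log2 changes of -0.18 and 0.16, against -0.21 and 0.18 with all arrays, and all 5 calls in knockout held. Under quantile normalization the calls of Bcl2 and Bcl2l11 in knockout were lost, with log2 changes of -0.12 and 0.14 (adjusted p = 0.128 and 0.0689).

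**Figure D3:**
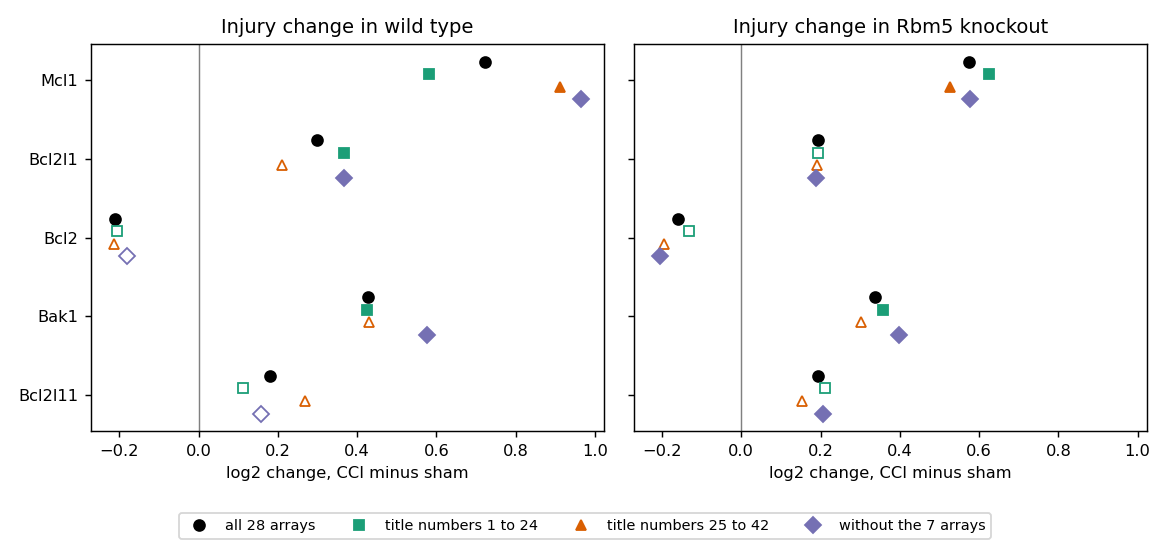
Log2 injury change of the 5 called genes in all 28 arrays, in each run of title numbers and without the 7 region-marked arrays; filled symbols have an adjusted p under 0.05. All symbols of a gene lie on the same side of 0 in both genotypes; Mcl1 in wild type spans 0.58 to 0.96 over these fits.

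Promoter sequence is shown for 3 genes: Mcl1 and Bak1, which rose most, and Bcl2, the only one called lower. The call of Bcl2 was not among the firmest. The windows of Bcl2l1, which also rose, held none of the motifs searched and are not shown. Each line gives the 250 bases upstream of an annotated transcript start in RefSeq on GRCm38.p6, read 5′ to 3′ on the strand of the gene. The Mcl1 window (chr3:95658471-95658720, plus strand) lies inside the span annotated for the gene, which has an earlier start too. The Bak1 window (chr17:27028628-27028877, minus strand) and the Bcl2 window (chr1:106714291-106714540, minus strand) lie just outside the annotated genes. Capitals mark matches to the motifs named after the sequences, on either strand.
Mcl1: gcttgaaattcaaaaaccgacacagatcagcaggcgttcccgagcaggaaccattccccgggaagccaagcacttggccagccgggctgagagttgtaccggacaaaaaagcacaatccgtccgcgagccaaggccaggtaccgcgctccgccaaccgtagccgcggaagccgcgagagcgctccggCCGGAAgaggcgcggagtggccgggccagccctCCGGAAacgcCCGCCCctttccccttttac
Bak1: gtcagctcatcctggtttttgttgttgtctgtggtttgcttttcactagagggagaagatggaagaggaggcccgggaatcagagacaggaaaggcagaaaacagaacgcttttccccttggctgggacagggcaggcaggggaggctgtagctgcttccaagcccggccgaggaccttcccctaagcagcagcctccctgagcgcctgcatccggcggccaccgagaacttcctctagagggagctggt
Bcl2: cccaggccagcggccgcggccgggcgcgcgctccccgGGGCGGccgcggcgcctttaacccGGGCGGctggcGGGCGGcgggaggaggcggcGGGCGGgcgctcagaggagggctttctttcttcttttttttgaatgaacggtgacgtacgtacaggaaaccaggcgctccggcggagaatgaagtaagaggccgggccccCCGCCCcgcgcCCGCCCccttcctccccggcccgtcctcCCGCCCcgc

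Motifs were searched by their letters on both strands: the GC box GGGCGG, the CCAAT box CCAAT, the ETS core CCGGAA, the AP-1 site TGANTCA, the cyclic AMP response element TGACGTCA and the STAT site TTCNNNGAA. The Mcl1 window held 2 ETS matches, beginning 63 and 30 bases before the start, and 1 GC box 20 bases before it. The Bcl2 window held 7 GC boxes and no other match, and its GC content was 74.8%, against 64.4% for Mcl1, 58.4% for Bak1 and a median of 52.4% over all windows. The Bak1 window held none of the motifs. Over the 14 windows of the 8 measured genes that the table lists, 9 held a GC box, 4 a CCAAT box and 4 an ETS core. Counted by gene, these were 6, 3 and 4 of the 8. Some genes have several windows, and those of Bbc3 partly overlap, so the windows are not separate observations. The same motifs occurred in 32.7%, 33.8% and 12.0% of all 32851 windows. AP-1, cyclic AMP response element and STAT letters were in none of the 14 and in 6.7%, 1.5% and 7.0% of all windows. A match describes letters in these windows and is not a measured binding site.

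Pro- and anti-apoptotic genes were then set side by side on each array, as the mean over the class of the log2 signal minus the WT sham mean of the same gene. This index is a description without a test, since its members were chosen. The anti-apoptotic index ran from -0.075 (median 0.016) to 0.050 in WT sham and from 0.17 (median 0.21) to 0.44 in WT CCI. In knockout it ran from -0.045 (median -0.001) to 0.14 after sham and from 0.18 (median 0.22) to 0.31 after injury. Injured arrays stood above sham arrays in both genotypes, while one of the 3 genes in the index, Bcl2, moved down.

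The pro-apoptotic index, over Bak1 and the 5 BH3-only genes, ran from -0.046 (median 0.001) to 0.049 in WT sham and from 0.057 (median 0.12) to 0.20 in WT CCI. In knockout it ran from -0.061 (median -0.019) to 0.021 after sham and from 0.009 (median 0.099) to 0.15 after injury. Of the 6 genes Bak1 changed most, with a median deviation of its own of 0.47 in WT CCI and 0.31 in KO CCI, and the mean of the BH3-only genes had medians of 0.061 and 0.055. Pro- minus anti-apoptotic, the difference ran from -0.062 to 0.098 in WT sham and from -0.25 (median -0.14) to -0.083 in WT CCI. In knockout it ran from -0.16 (median -0.031) to 0.066 after sham and from -0.22 (median -0.11) to -0.082 after injury. All 14 injured arrays were below 0, while sham arrays of both genotypes lay on either side of 0. The ranges overlapped in knockout but not in wild type. With injury, Mcl1 changed by 0.72 in wild type and 0.58 in knockout, Bcl2l1 by 0.30 and 0.19, and Bcl2 by -0.21 and -0.16. The difference thus rests mostly on Mcl1, and it was not computed without Mcl1. The pro-apoptotic rows lay under the negative-control median, and this difference compares array signal, not amounts of transcript.

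**Figure D4:**
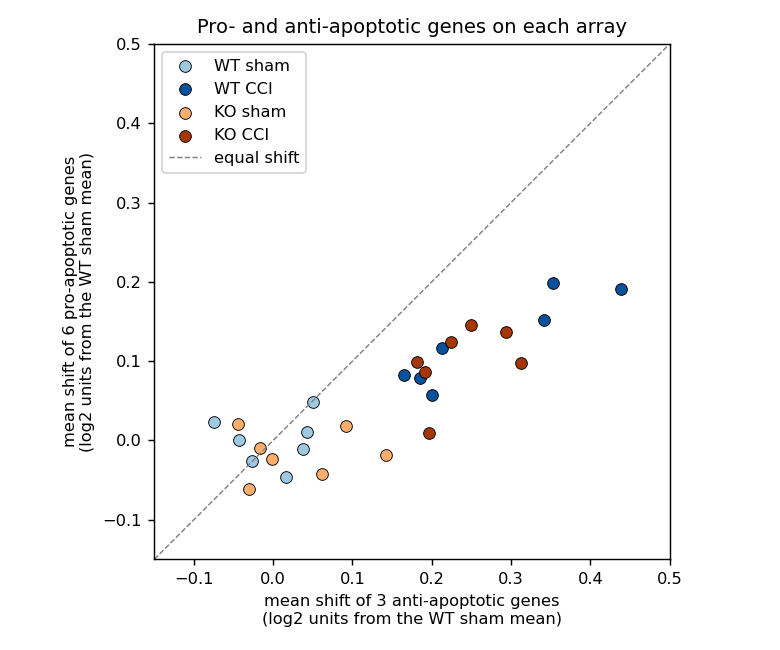
Mean shift of the 6 measured pro-apoptotic genes against the mean shift of the 3 anti-apoptotic genes on each of the 28 arrays, in log2 units from the WT sham mean of each gene; the dashed line marks equal shifts. The injured arrays lie to the right of the dashed line, with anti-apoptotic shifts of 0.17 to 0.44 and pro-apoptotic shifts of 0.009 to 0.20.

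Genotype was compared next, since the study set Rbm5 knockout beside wild type. No family gene differed between knockout and wild type after sham, after injury or over both procedures: 0 of 9 passed limma's adjusted threshold in each comparison, and 0 of 9 had an unadjusted p under 0.05. Over all transcript clusters, 1.28% were called after sham, 0.653% after injury and 3.16% over both procedures. At these rates a set of 9 genes would seldom hold a call, so the count says little about the family. The intervals below are those of the fit to all arrays.

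After sham, the largest difference of the family was that of Pmaip1, at -0.074 log2 units (knockout minus wild type, 95% interval -0.20 to 0.047, adjusted p = 0.721). Mcl1 differed by 0.054 (-0.11 to 0.22), Bcl2l1 by 0.047 (-0.063 to 0.16), Bcl2 by -0.003 (-0.10 to 0.098) and Bak1 by -0.008 (-0.15 to 0.14). After injury, Bak1 differed by -0.098 (-0.24 to 0.047, adjusted p = 0.707), Mcl1 by -0.094 (-0.26 to 0.071, adjusted p = 0.767) and Bcl2 by 0.047 (-0.053 to 0.15). Over both procedures the differences of the 9 genes lay between -0.069 (Pmaip1) and 0.041 (Bad). The difference of Mcl1 after injury moved with the arrays fitted: it was -0.325 without the 7 region-marked arrays (adjusted p = 0.145), -0.31 in title numbers 25 to 42 (adjusted p = 0.481) and 0.065 in title numbers 1 to 24 (adjusted p = 0.862). The values of -0.325 and -0.31 both lie below the interval of the fit to all arrays, so that interval is no limit on the difference.

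The difference between the injury changes was tested directly and was not significant for any of the 9 genes. No transcript cluster in the series passed that test (0.0% called by limma, with 4097 at an unadjusted p under 0.05, and 0 called under each alternative run). The injury change of Mcl1 was 0.15 log2 units smaller in knockout (difference -0.15, 95% interval -0.38 to 0.086, adjusted p = 0.853). That of Bcl2l1 differed by -0.11 (-0.26 to 0.049, adjusted p = 0.838), that of Bak1 by -0.090 (-0.30 to 0.12) and that of Bcl2 by 0.050 (-0.093 to 0.19). Here too Mcl1 moved with the arrays fitted: the difference was -0.39 without the 7 region-marked arrays (adjusted p = 0.348), -0.39 in title numbers 25 to 42 (0.694) and 0.045 in title numbers 1 to 24 (0.953). For the BH3-only genes the differences lay between -0.035 (Bid) and 0.028 (Bad). A pattern of non-overlap in wild type and overlap in knockout, as for Bcl2, Bcl2l1 and Bak1, was therefore not shown to be a difference between the genotypes.

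**Figure D5:**
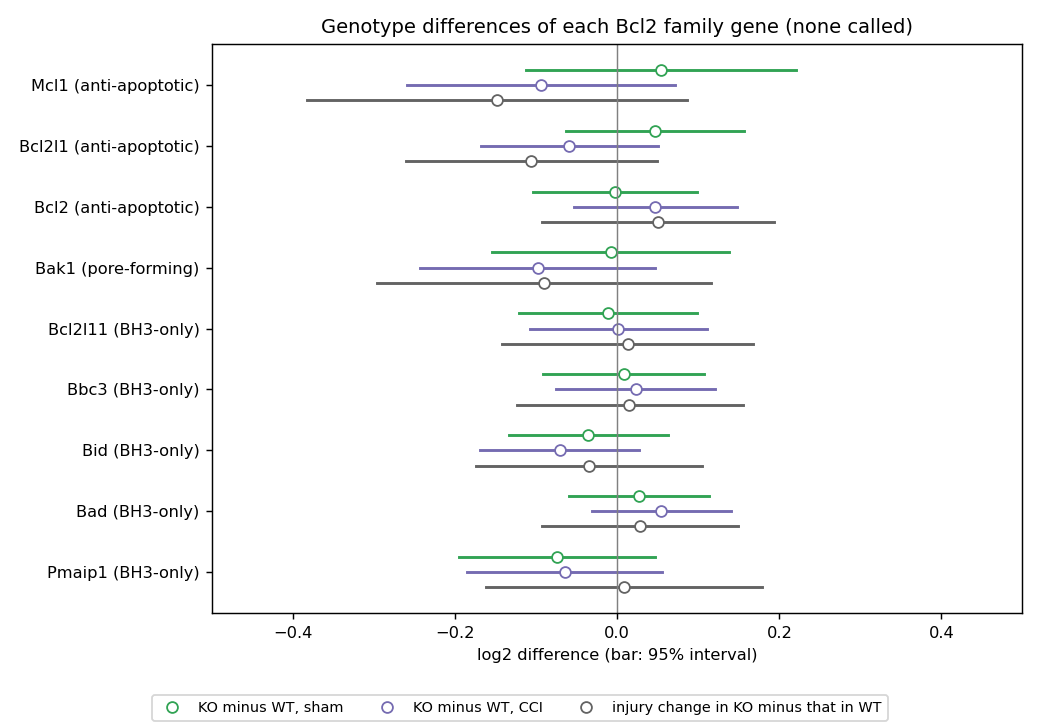
Log2 difference between knockout and wild type after sham and after injury, and the injury change in knockout minus that in wild type, for each measured gene; bars are 95% intervals. Every interval includes 0, and those of Mcl1 are the widest.

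Males and females were compared for the injury change averaged over genotypes. None of the 9 genes differed by sex, with female minus male differences between -0.027 (Bcl2l11) and 0.10 (Bad, 95% interval -0.017 to 0.22, adjusted p = 0.848), and 0 of 9 had an unadjusted p under 0.05. Over all transcript clusters, 0.0106% passed that test.

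Other Bcl2 family genes were read from a separate list, of which 14 of 16 had a transcript cluster. With injury in wild type, 2 rose and 1 fell, and in knockout 3 rose. The counts in wild type are near the shares over all transcript clusters (8.86% higher and 7.96% lower, with 8.43% and 8.27% in knockout), and those of the later lists are to be read against the same shares. Bcl2a1a and Bcl2a1d, copies of the anti-apoptotic gene A1 of blood-derived cells, rose 2.19-fold and 1.75-fold in wild type (limma adjusted p = 1.12e-06 and 3.34e-06) and 1.92-fold and 1.66-fold in knockout. The A1 copies are near-identical in sequence, so their probes may not tell them apart and they count as 1 observation. Hrk, a BH3-only gene of neurons, rose by 0.28 in knockout (adjusted p = 0.00462), with a log2 change of 0.17 in wild type that did not pass (adjusted p = 0.0952). Bcl2l15 fell by 0.26 in wild type (adjusted p = 0.0176), and its log2 change in knockout was 0.021. The group means of Bcl2l15 (4.34 to 4.60) lay under the negative-control median of 6.57, as did all group means of Bcl2a1d and the sham means of Bcl2a1a. Birc3, Birc5, Tnfrsf1a and Eda2r, named from the later lists, also lay under it in every group, Tnfrsf1a only just so in WT CCI. Atf3 lay under it in both sham groups. Such rows were likewise not shown to be above background.

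Downstream of the mitochondria, 14 of 16 listed genes of the apoptosome, its caspases and their inhibitors were measured, and 4 rose and 1 fell in each genotype. Apaf1, the scaffold of the apoptosome, rose by 0.36 in wild type and 0.47 in knockout (adjusted p = 0.000836 and 5.06e-05). Cycs, which encodes cytochrome c, fell by 0.19 and 0.29 (adjusted p = 0.0266 and 0.000597). Birc3 and Birc5, inhibitor of apoptosis genes of which Birc5 also serves cell division, rose by 0.31 and 0.26 in wild type and by 0.30 and 0.30 in knockout. The list held both death-promoting and inhibitory genes among those that rose.

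The death receptor pathway, which meets the Bcl2 family at Bid, had 11 of 12 listed genes measured, of which 9 rose in wild type and 8 in knockout. Casp8, the protease that cuts Bid, rose 3.18-fold in wild type (adjusted p = 8.28e-12) and 2.66-fold in knockout (adjusted p = 4.52e-10). Tnfrsf1a, a receptor for tumour necrosis factor, rose 2.13-fold and 1.93-fold, on a row under the negative-control median. Cflar, whose product restrains Casp8, rose 1.54-fold and 1.5-fold. The median log2 change of the 11 genes was 0.41 in wild type and 0.28 in knockout.

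Targets of p53 and regulators of the BH3-only genes moved in both directions. The list of p53 and its targets had 13 of 14 genes measured, without Trp53, the gene of p53 itself. Of these 13, 5 rose and 2 fell in each genotype. Cdkn1a, the cell cycle inhibitor most used as a p53 readout, rose 2.40-fold in wild type (adjusted p = 3.53e-07) and 1.72-fold in knockout (adjusted p = 0.000428). Gadd45a rose by 0.35 and 0.41 and Eda2r by 0.33 and 0.28, while the p53 targets of the family, Bbc3 and Pmaip1, did not pass in either genotype. Plk2 and Zmat3 fell by 0.23 and 0.16 in wild type, and Zmat3 and Tigar fell by 0.21 and 0.18 in knockout. Of 10 genes listed as regulators of BH3-only genes, 3 rose and 3 fell in each genotype. Jun rose 2.21-fold and 2.33-fold, Atf3 1.76-fold and 1.86-fold, and Ddit3, a stress factor that can induce Bcl2l11, 1.68-fold and 1.57-fold. Foxo3, an activator of Bcl2l11, fell by 0.30 and 0.38, Egr1 fell by 0.63 and 0.68, and Mapk8, the kinase JNK1, by 0.34 and 0.30. In the genotype comparisons, 1 gene of these lists was called: Ccng1, a p53 target, was lower in knockout over both procedures by 0.21 log2 units (log2 difference -0.21, adjusted p = 0.019).

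Cell type markers moved with the same groups. In wild type, 6 of 8 microglia and macrophage markers, 6 of 6 monocyte markers and 4 of 6 neutrophil markers rose, as did 6 of 7 oligodendrocyte and 3 of 6 endothelial markers. Of 6 astrocyte markers 3 rose, among them Gfap (23.4-fold, adjusted p = 2.04e-11), and 1 fell. Of 8 neuron markers 3 fell, and of 6 lymphocyte markers 1 fell. In knockout 6 of 8 microglia and macrophage, 5 of 6 monocyte, 3 of 6 neutrophil, 2 of 7 oligodendrocyte and 2 of 6 endothelial markers rose, 3 of 6 astrocyte markers rose and 1 fell (Gfap 8.32-fold higher, adjusted p = 5.16e-08), and 3 of 8 neuron markers fell. No marker of blood, striatum or choroid plexus was called in either genotype, and blood rested on 1 of 5 listed genes. The median log2 change of the 6 striatum markers was 0.53 in wild type and 0.55 in knockout. Their SEs in wild type ran from 0.295 to 0.709, so the lack of calls does not show that the groups were sampled alike. The mean log2 signal of the microglia and macrophage markers ran from 7.59 to 7.78 in WT sham, 8.66 to 9.49 in WT CCI, 7.65 to 8.02 in KO sham and 8.66 to 9.38 in KO CCI. The monocyte mean ran from 6.17 to 6.35, 7.44 to 8.18, 6.11 to 6.35 and 7.31 to 8.07 in the same order. The astrocyte mean ran from 11.13 to 11.22, 11.74 to 12.32, 11.15 to 11.71 and 11.74 to 12.23, and the oligodendrocyte mean from 9.25 to 9.67, 9.97 to 10.38, 9.42 to 10.003 and 9.40 to 10.32. The neuron mean ran from 13.92 to 14.07 in WT sham, 13.75 to 14.11 in WT CCI, 13.93 to 14.09 in KO sham and 13.68 to 13.92 in KO CCI. Between genotypes, Gfap was higher in knockout after sham (2.57-fold, adjusted p = 0.0263). Mbp, Pecam1 and Cdh5 were lower in knockout after injury (1.33-fold, 1.27-fold and 1.4-fold, adjusted p = 0.049, 0.0228 and 0.0197), and Pecam1 and Cdh5 were lower over both procedures (1.16-fold and 1.25-fold, adjusted p = 0.0223 and 0.0119). The part of these markers in the changes of Mcl1, Bcl2l1, Bak1, Bcl2l11, Bcl2 and the Bcl2a1 copies was not tested.

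Genes that followed Mcl1 and Bcl2 from mouse to mouse were sought by the Pearson correlation of log2 signal minus its group mean over the 28 arrays, among 11534 named genes. For Mcl1, the gene of largest injury change, the closest were Txn1 (thioredoxin, r = 0.803), Tmsb4x (thymosin beta, an actin binder, r = 0.793), Stt3a (0.763), Tgfbi (0.763) and Rps4x (0.756). All 5 also rose with injury, from 0.63 log2 units for Stt3a to 3.45 for Tgfbi in wild type. The SD of Mcl1 was 0.25 within WT CCI, against 0.076 to 0.13 within the other groups. The correlations with Mcl1 thus rest mostly on the spread of WT CCI, whose lowest arrays in Mcl1 were the region-marked ones. For Bcl2 the closest were Mrpl40 (0.656), Cnot11 (0.652), Pdia5 (0.649), Rab3il1 (0.648) and Nbl1 (0.594). Of these, Rab3il1 rose with injury by 0.35 in wild type and 0.32 in knockout, opposite to Bcl2, and the other 4 did not pass. Without removal of group means, the r with Bcl2 was 0.43, 0.54, 0.21, -0.58 and 0.60, in the order given above. Each set of 5 was picked as the highest of 11534 values, and the level that chance alone would give was not computed. The arrays share groups, tissue composition and array quality, and these values are descriptions with no test.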

How the data were processed

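The deposited table held log2 signal for 72688 rows on 28 arrays, a unit read from the values themselves. The sources used here do not state how the authors normalized these values. No further scaling was done, and array medians lay between 5.79 and 5.90. Per the labels' protocols, biotin-labelled cDNA was made from 100 ng of Trizol-extracted RNA.

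Control rows (6732) were left out and 65956 tested. Of these, 31123 had 1 gene name in the supplied annotation, updated through RefSeq (GRCm38.p6). Rows listing several genes (1498) or lying on another chromosome than their gene (129) were not named. The linear model (limma 3.58.1, lmFit and eBayes, R 4.3.3) had a mean per group and an additive sex effect, with Benjamini-Hochberg adjustment over all rows tested. Sex differences came from a mean for each sex in each group. The model was tested on simulated data. Figures came from matplotlib 3.10.9 and tables from pandas 2.3.3 under Python 3.11.15. The number of arrays, 7 per group, limits the precision.

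The members and gene lists were chosen with earlier results of these data known. All members were named in every comparison. From each other pathway list, called genes with the largest changes were named, up to 3 per direction in the injury comparisons, and any called gene in the genotype comparisons. Marker lists are given by counts and mean levels, with Gfap and the markers called between genotypes named after their values were seen. The genes most like Mcl1 and Bcl2 were the 5 highest correlations among named genes with a mean above the median level. Alternatives were no sex term, the run of title numbers as a covariate, each run alone, quantile normalization, median centring, brighter rows, a variance trend, array weights, a stricter threshold (0.01), the compared arrays alone, and each array, or the 7 region-marked arrays, left out.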

Additional observations from a re-analysis of the deposited data

Results flagged for a closer look

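Bid in KO sham had 1 array apart from the others: KO sham 32 stood at a log2 signal of 6.08, against 6.28 to 6.37 on the other 6. Its gap to the nearest array was 0.675 of the whole range, above Dixon's critical value of 0.568 for 7 arrays. Of 36 sets of arrays tested (9 genes in 4 groups) this was the only one past that value, and chance alone would put about 5% of sets past it. Bid was called in no comparison with or without this array.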

How the results depend on the processing

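Of the 10 injury calls none changed direction under any of the 12 other settings or without any single array. Of the 5 calls in wild type, 3 were left in title numbers 1 to 24 alone, 1 in title numbers 25 to 42 alone and 3 without the 7 region-marked arrays. Of the 5 in knockout, 2, 1 and 5 were left, with 3 under quantile normalization, 3 under median centring and 2 at an adjusted p under 0.01. Within a run fewer arrays were fitted; otherwise the cause was not tested. No genotype result or difference between injury changes had a family gene called under any setting. The brighter-row filter removed Bcl2l11 and Pmaip1, and a mean over all rows of a symbol was not run because each member had 1 row. No paired analysis was possible because the groups share no replicate numbers.

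Calls over all rows differed by more than 1.5 times from the 11094 of injury in wild type in title numbers 1 to 24 (5900), 25 to 42 (5217) and at an adjusted p under 0.01 (7268), and from the 11017 in knockout in title numbers 25 to 42 (2567) and at 0.01 (7060). For genotype after sham, 847 became 472, 5 and 278 under those 3 settings and 1279 with array weights, and 438 to 921 without single arrays; median centring gave 341 higher and 345 lower, against 335 and 512. After injury, 431 became 125, 15 and 181, 131 in the compared arrays alone, 187 without the 7 arrays, and 298 to 508 without single arrays; centring gave 89 higher and 331 lower, against 149 and 282. Over both procedures, 2081 became 872, 74 and 1006, and 961 without the 7 arrays.

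Among family changes that were not called, the log2 value took the other sign in these cases, and the cause was not tested. Without the 7 region-marked arrays it was for the injury change in wild type Pmaip1 0.002, for the genotype difference after sham Bbc3 -0.010, for the genotype difference after injury Bcl2 -0.038 and Bbc3 -0.018, for the genotype difference over both procedures Bcl2 -0.025 and Bbc3 -0.014, for the difference between injury changes Bcl2 -0.025, Bbc3 -0.008 and Pmaip1 -0.016. In title numbers 1 to 24 alone it was for the injury change in knockout Bid -0.012, for the genotype difference after sham Bbc3 -0.067 and Bak1 0.024, for the genotype difference after injury Mcl1 0.065, for the genotype difference over both procedures Bcl2l11 0.047, Bcl2l1 0.014, Mcl1 0.043 and Bbc3 -0.008, for the difference between injury changes Mcl1 0.045. In title numbers 25 to 42 alone it was for the injury change in wild type Pmaip1 0.080, for the injury change in knockout Pmaip1 0.004, for the genotype difference after sham Bcl2 0.007 and Bcl2l1 -0.022, for the genotype difference after injury Bcl2l11 -0.12, Bbc3 -0.015 and Bad -0.002, for the difference between injury changes Bcl2l11 -0.12, Bbc3 -0.12, Pmaip1 -0.076 and Bad -0.040. With quantile normalization it was for the injury change in knockout Bid -0.020, for the genotype difference after sham Bcl2l11 0.005 and Bak1 0.006, for the genotype difference after injury Bcl2l11 -0.020, for the difference between injury changes Bcl2l11 -0.026, Bbc3 -0.018, Pmaip1 -0.032 and Bad -0.006. With median centring it was for the injury change in knockout Bid -0.040, for the genotype difference after sham Bcl2 0.013, Bcl2l11 0.004 and Bak1 0.008, for the genotype difference after injury Bcl2l11 -0.019, for the difference between injury changes Bcl2l11 -0.023, Bbc3 -0.020, Pmaip1 -0.027 and Bad -0.008. With array weights it was for the genotype difference after sham Bbc3 -0.001, for the genotype difference over both procedures Bcl2l11 0.000. Without single arrays the range was, for the injury change in wild type Pmaip1 -0.072 to 0.001, for the injury change in knockout Bid -0.025 to 0.022, for the genotype difference after sham Bcl2 -0.020 to 0.016, Bcl2l11 -0.031 to 0.015, Bak1 -0.037 to 0.013 and Bbc3 -0.017 to 0.031, for the genotype difference after injury Bcl2l11 -0.027 to 0.035, for the genotype difference over both procedures Bcl2l11 -0.020 to 0.013, Bcl2l1 -0.023 to 0.007 and Mcl1 -0.043 to 0.008, for the difference between injury changes Bcl2l11 -0.013 to 0.044, Pmaip1 -0.029 to 0.038, Bbc3 -0.008 to 0.039, Bid -0.065 to 0.000 and Bad -0.003 to 0.043. The array gives signal and no depth, and the pro-apoptotic rows lay under the negative-control median, which limits what their intervals cover.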
